A study of Mus musculus with 4 samples.

Results

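The Notch pathway was described here through 34 genes, given by symbol as its ligands, receptors, fringe glycosyltransferases, proteases, nuclear factors, regulators and target genes. Each symbol matched 1 Ensembl identifier of the deposited table, which gave 34 of 35689 genes. The 4 RNA libraries came from E11.5 mouse forelimbs, and each held the left and right limb of an individual embryo. In the 2 knockout embryos (PrxCre/+;Smarcc1c/c) both copies of Smarcc1 were conditional alleles and a PrxCre transgene was present. The product of Smarcc1, BAF155, belongs to the core of the BAF chromatin remodelling complex. The 2 control embryos (Prx+/+;Smarcc1c/c) carried the same conditional alleles without Cre. PrxCre acts in limb bud mesenchyme, so ectoderm, endothelium, blood, muscle precursors and nerves of the same buds lie outside its domain. In each genotype replicate 1 had 40 somites and replicate 2 had 39, and values below are given in that order.

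Notch receptors are cell-surface proteins that are switched on by Delta-like and Jagged ligands on a neighbouring cell. Binding lets ADAM proteases and then the gamma-secretase complex cut the receptor, and its released intracellular part joins the DNA-binding protein RBPJ and a Mastermind coactivator to turn on genes of the Hes and Hey families. Fringe enzymes add sugars to the receptor that change which ligands it answers to. In the limb bud, Jag2 of the apical ectodermal ridge is known for its part in digit separation, Jag1 is expressed in distal mesenchyme, and Dll4, Notch1 and Notch4 are known from blood vessels.

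Values are TPM, an abundance scaled for transcript length and for the library total, so levels can be set side by side between genes. Read depth is unknown. Smarcc1 measured 46.2 and 38.4 TPM in knockout limbs, against 112 and 119.6 TPM in control limbs, and fell by 1.44 on the log2(TPM + 1) scale (SE 0.13, n = 2 per genotype, limma with Benjamini-Hochberg adjustment, adjusted p = 0.0117). Y-linked Ddx3y was near 0 at 40 somites (0.0498 TPM in the knockout, 0.0130 in the control) and high at 39 somites (28.3 and 30.2 TPM), so sex coincided with somite stage and was balanced between genotypes. All 8 limb mesenchyme markers, among them Tbx5 and Prrx1, were above 1 TPM in every library. Of these Pdgfra rose and Msx1 and Lhx9 fell. The hindlimb markers Pitx1 and Tbx4 both rose in these limbs labelled forelimb: Pitx1 came to 14.9 and 10.4 TPM with the knockout and 0.110 and 0.165 TPM without it, and Tbx4 to 15.5 and 19.3 TPM with it and 4.52 and 6.07 TPM without. Whole buds were sequenced, so fewer cells of a type and less RNA per cell cannot be told apart.

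The Hes and Hey target genes are read through RBPJ, whose site has the core letters TGGGAA, with GTGGGAA as a longer form. Sequences around start sites were taken from the RefSeq promoter table of GRCm38.p6, which is mm10, and 28 of the 34 genes had an entry, with 35 start sites. Not in the table were Hes1, Hey1, Heyl, Mfng, Dtx3 and Dtx4. The 4 target and fringe genes with the longer form before their start are shown because they are the members with such letters that read out the pathway or tune it. Capitals mark TGGGAA or its reverse complement TTCCCA, and each sequence runs 5′ to 3′ on the gene's strand and ends before the first base of the gene in GENCODE.
Hes5, chr4:154960673-154960922, plus strand: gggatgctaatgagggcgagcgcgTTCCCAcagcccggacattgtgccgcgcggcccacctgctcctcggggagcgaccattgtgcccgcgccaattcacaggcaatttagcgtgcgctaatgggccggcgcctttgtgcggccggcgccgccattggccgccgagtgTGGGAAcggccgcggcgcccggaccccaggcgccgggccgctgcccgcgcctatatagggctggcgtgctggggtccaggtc
Hey2, chr10:30842802-30843033, minus strand: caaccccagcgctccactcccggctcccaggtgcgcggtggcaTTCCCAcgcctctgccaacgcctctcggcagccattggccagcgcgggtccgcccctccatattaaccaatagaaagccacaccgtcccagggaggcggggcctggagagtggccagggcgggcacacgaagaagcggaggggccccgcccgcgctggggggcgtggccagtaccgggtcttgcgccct
Lfng, chr5:140607091-140607319, plus strand: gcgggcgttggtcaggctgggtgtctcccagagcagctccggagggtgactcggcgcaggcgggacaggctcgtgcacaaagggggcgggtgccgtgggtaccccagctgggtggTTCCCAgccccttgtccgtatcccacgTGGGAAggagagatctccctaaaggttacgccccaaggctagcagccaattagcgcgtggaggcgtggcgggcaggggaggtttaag
Hes7, chr11:69120203-69120403, plus strand: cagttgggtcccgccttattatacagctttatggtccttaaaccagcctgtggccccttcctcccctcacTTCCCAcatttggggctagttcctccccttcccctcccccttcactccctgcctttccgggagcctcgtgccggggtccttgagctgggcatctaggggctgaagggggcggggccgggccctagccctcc

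Hes5 and Lfng each have a pair of core matches in these windows, and Hey2 and Hes7 have 1 each. A second Hey2 match starts 3 bases before the RefSeq start and lies outside the printed stretch. In the windows from 250 bases before to 50 bases after a start, 10 of 35 member start sites (28.6%) held the core on either strand, against 25.6% of 32851 start sites in the table. The longer form, which contains the core, was in 5 of 35 (14.3%) against 6.38%, and besides the 4 genes shown it was found at a start of Psen2. No match was found in the windows of Dll3, Notch1 or Notch2. At 14 of the 35 start sites, those of Dll3 and Notch1 among them, the 250 bases lie inside the gene as GENCODE annotates it, so they are not upstream of its first base. These matches describe letters and were not tested against binding. The levels of the 4 genes shown are given with the targets and the fringe genes.

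The comparison asked which of these genes differ between Smarcc1 knockout and control forelimbs. Dll3, an atypical Delta-like ligand, rose, and none of the other members passed. Of the 34 genes, 31 reached 1 TPM in at least 2 libraries and were tested, while Hes5, Hes7 and Dtx1 did not. By limma with Benjamini-Hochberg adjustment over all 12809 genes tested, 1 of 31 was higher, 0 were lower and 30 did not pass. Over all genes 1.30% passed, 0.812% higher and 0.492% lower. Before adjustment, limma p-values were under 0.05 for 4 higher (Dll3, Notch2, Dtx3 and Psen2) and 2 lower members (Notch1 and Numb), which is 19.4% of the members against 13.7% of all genes (6.78% higher, 6.89% lower). The 2 knockout values lay on 1 side of both control values for 13 members (8 higher, 5 lower), or 41.9%, against 43.9% of all genes (22.7% higher, 21.2% lower). The median log2 fold change was -0.00 over the members and 0.01 over all genes, and 27 of 31 members lay within 0.5 of 0.

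**Figure D1:**
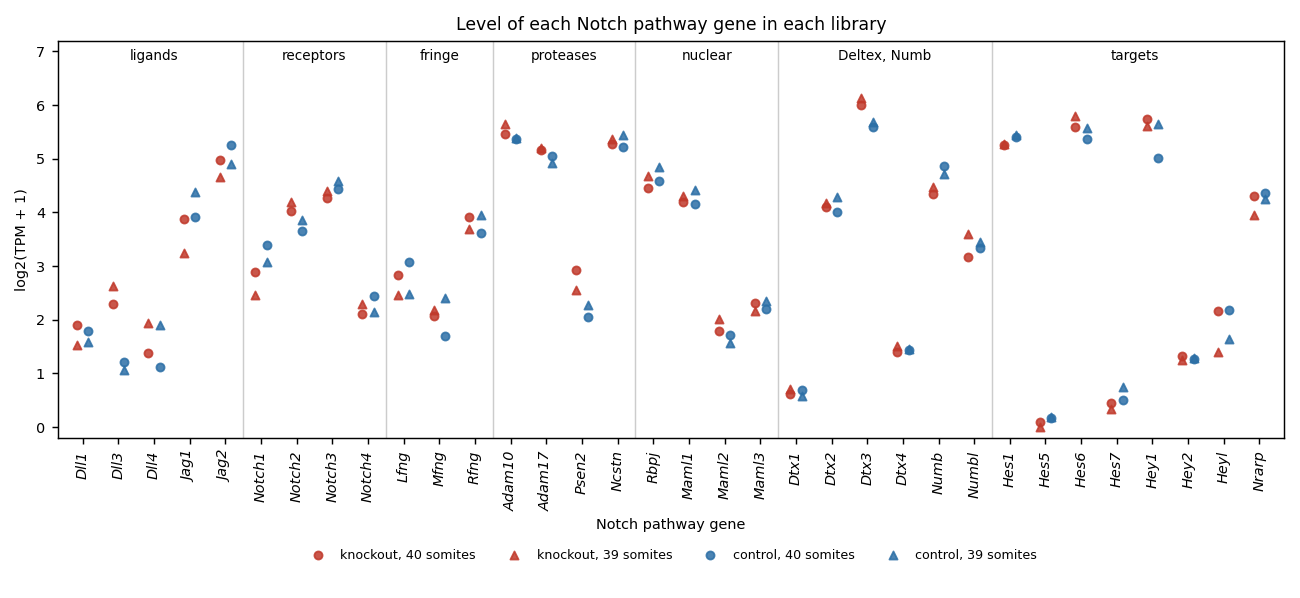
Level of each of the 34 genes in each library, as log2(TPM + 1), grouped by role; red marks knockout, blue control, circles the embryos with 40 somites and triangles those with 39. Dll3 is the ligand whose red points (3.93 and 5.17 TPM) stand clear of its blue ones (1.31 and 1.096 TPM), while the points of most other genes lie close together.

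Among the ligands, Dll3 measured 3.93 and 5.17 TPM in knockout limbs, against 1.31 and 1.096 TPM in control limbs. Both knockout values were above both control values, and the ratio of the mean levels was 3.78. Dll3 is a divergent Delta-like protein that is known to act inside the cell against Notch signalling and is best known from the presomitic mesoderm, the tissue that forms somites. The fold change came to 1.32 ± 0.18 on the log2 scale (SE, n = 2 per genotype), with a 95% interval from 0.88 to 1.76 (adjusted p = 0.0351, limma with Benjamini-Hochberg adjustment). At the same somite stage the difference was 1.09 at 40 somites and 1.56 at 39. On the log2 scale with a pseudocount of 0.1 or 5 it came to 1.83 or 0.62, and both passed. The call ended without control replicate 1 (limma adjusted p = 0.0705), without control replicate 2 (0.0940), under quantile normalization (0.0537) and with no filter on low values (0.182). A fit without 1 library takes its spread from the pair of the other genotype and from all genes, and assumes that the lone library varies like that pair. The gene (ENSMUSG00000003436) lies on chromosome 7 of mm10 from 28293553 to 28302238 on the minus strand, and no exon of a gene on the other strand overlaps its exons.

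Markers of a tissue where Dll3 is well known were read beside it, from a list drawn up after the values of Dll3 had been seen. Of 8 presomitic mesoderm genes, 7 stayed below 1 TPM in every library, among them Tbx6, Msgn1 and Mesp2, and Ripply1 was listed at 0 throughout. The eighth, the T-box gene T, rose and measured 32.25 and 14.2 TPM in knockout limbs, against 2.69 and 3.06 TPM in control limbs. Hes7 and Lfng, which with Dll3 belong to the Notch clock genes of the presomitic mesoderm, are described below. Hes7 was not tested and Lfng did not pass. The hindlimb markers Pitx1 and Tbx4, given above, also separated the libraries by genotype as Dll3 did, and the part of a cell type or limb identity in the Dll3 values was not tested.

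Jag2, the ridge ligand, was the ligand with the highest level, at 30.4 and 24.3 TPM in knockout limbs, against 37.3 and 28.8 TPM in control limbs. The groups overlapped, and its log2 fold change was -0.26 with a 95% interval from -0.68 to 0.16. Jag1 stood at 13.6 and 8.42 TPM against 14.2 and 19.9 TPM. Its knockout values lay below both controls, but nearly all of the difference came from the pair with 39 somites (-1.15 on the log2 scale, against -0.05 at 40 somites). Over all genes Jag1 did not pass (-0.60 ± 0.25, adjusted p = 0.377 by limma with Benjamini-Hochberg adjustment), and it passed without knockout replicate 1 (-0.92, adjusted p = 0.00443), a fit in which the only knockout embryo had 39 somites.

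Dll1, a ligand of somites and muscle precursors, measured 2.75 and 1.88 TPM in knockout limbs, against 2.46 and 2.00 TPM in control limbs. Dll4, the ligand of arterial and sprouting endothelium, stood at 1.62 and 2.82 TPM against 1.18 and 2.74 TPM. Neither separated the genotypes, and in Dll4 the embryos with 39 somites were the higher ones in both. The ligand genes together came to 52.3 and 42.6 TPM in knockout limbs, against 56.4 and 54.6 TPM in control limbs. Dll3 made up 7.51% and 12.1% of that sum in the knockouts and 2.33% and 2.01% in the controls. With 2 libraries against 2 an exact two-sided permutation test cannot give a p below 0.33, so sums and shares are given without a test.

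Of the 4 receptors, Notch1 and Notch2 had differences in opposite directions, and neither passed over all genes. Notch1 measured 6.42 and 4.48 TPM in knockout limbs, against 9.57 and 7.49 TPM in control limbs. Notch2 stood at 15.3 and 17.3 TPM against 11.55 and 13.6 TPM. In both genes the genotypes did not overlap. The log2 fold changes were -0.57 ± 0.20 for Notch1 and 0.35 ± 0.14 for Notch2 (SE, n = 2 per genotype, adjusted p = 0.294 and 0.354 by limma with Benjamini-Hochberg adjustment). At equal stage Notch1 differed by -0.51 and -0.63, and Notch2 by 0.37 and 0.33. Notch1 passed without knockout replicate 1 (-0.79, limma adjusted p = 0.0424), and its fold change was -0.35 without knockout replicate 2 and -0.41 without control replicate 1.

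Notch3, the receptor of vascular mural cells, measured 18.4 and 20.2 TPM in knockout limbs, against 20.8 and 23.0 TPM in control limbs. The genotypes were separated by a narrow gap, and the log2 fold change was -0.17, with an interval from -0.48 to 0.13. Notch4, an endothelial receptor, stood at 3.34 and 3.93 TPM against 4.45 and 3.41 TPM, and its groups overlapped. Notch3 had the highest level of the 4 in every library, then Notch2, then Notch1, then Notch4. Summed receptor TPM was nearly level, at 43.4 and 45.9 TPM in knockout limbs, against 46.3 and 47.5 TPM in control limbs. Within that sum Notch1 took 14.8% and 9.75% in the knockouts and 20.7% and 15.8% in the controls, while Notch2 took 35.2% and 37.7% against 24.9% and 28.6%. The ratio of Notch2 to Notch1 was 2.38 and 3.86 in the knockouts and 1.21 and 1.81 in the controls, which restates the separation of both genes.

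**Figure D2:**
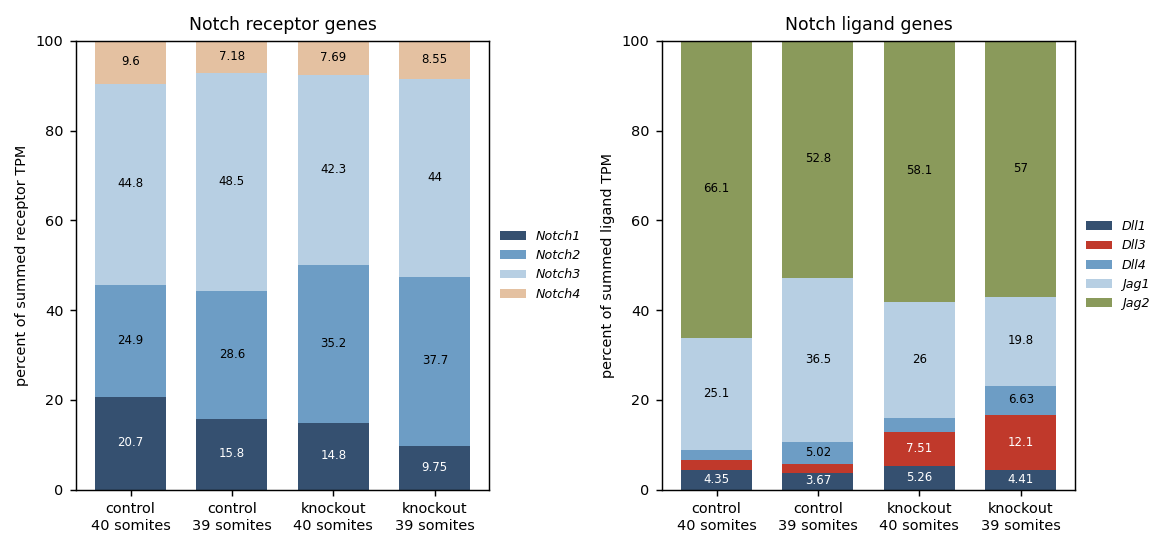
Share of each receptor gene (left) and each ligand gene (right) in the summed TPM of its family, 1 bar per library, in percent. Notch2 takes 35.2% and 37.7% of receptor TPM in the knockout bars against 24.9% and 28.6% in the control bars, and Dll3, in red, takes 7.51% and 12.1% of ligand TPM against 2.33% and 2.01%.

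None of the fringe genes passed, and in each the genotypes overlapped. Rfng, with the highest level of the 3, measured 14.0 and 11.96 TPM in knockout limbs, against 11.3 and 14.4 TPM in control limbs. Lfng stood at 6.13 and 4.50 TPM against 7.39 and 4.61 TPM, and Mfng at 3.19 and 3.52 TPM against 2.24 and 4.31 TPM. Their 95% intervals together ran from -0.71 to 0.68 on the log2 scale. Within the Lfng values the embryo with 40 somites was the higher one in each genotype.

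None of the 4 protease genes passed, and 3 had knockout values above both controls, a side on which 22.7% of all genes were separated. Psen2, a presenilin and so a catalytic subunit of gamma-secretase, measured 6.56 and 4.89 TPM in knockout limbs, against 3.15 and 3.83 TPM in control limbs. The fold change came to 0.58 ± 0.18 on the log2 scale (SE, n = 2 per genotype, adjusted p = 0.248 by limma with Benjamini-Hochberg adjustment), with 0.87 at 40 somites and 0.29 at 39. Adam10, the main protease of ligand-activated receptor, stood at 43.1 and 49.1 TPM against 40.3 and 40.8 TPM. Adam17, a related sheddase, stood at 34.9 and 35.6 TPM against 32.2 and 29.5 TPM. Both were separated by genotype, at 0.18 and 0.19 on the log2 scale, with intervals that reached from -0.10 to 0.46 and from -0.08 to 0.46. Ncstn, the substrate receptor of gamma-secretase, stood at 37.9 and 40.5 TPM against 36.2 and 42.5 TPM, and its groups overlapped. Adam17 and Ncstn have exons that overlap a gene on the other strand, Iah1 and Copa, so their values are uncertain without the strand. Notch1 and Numb are among the other members with such an overlap.

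In the nucleus, neither Rbpj nor a Mastermind coactivator gene passed. Rbpj measured 21.1 and 24.7 TPM in knockout limbs, against 23.0 and 27.7 TPM in control limbs. Maml1, the Mastermind gene with the highest level, stood at 17.2 and 18.7 TPM against 16.9 and 20.4 TPM. In both genes the groups overlapped and the embryo with 39 somites was the higher one in each genotype. Maml2 stood at 2.46 and 3.03 TPM against 2.28 and 1.96 TPM, and Maml3 lay between 3.497 and 4.12 TPM in all libraries. The log2 fold changes of the 4 ran from -0.14 to 0.26, and none passed.

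Among the Deltex and Numb genes, Dtx3 and Numb were separated by genotype in opposite directions. Dtx3, one of the Deltex family of ubiquitin ligases and the member with the highest mean level of all 34, measured 62.8 and 69.3 TPM in knockout limbs, against 47.5 and 50.3 TPM in control limbs. The log2 fold change of 0.43 ± 0.11 (SE, n = 2 per genotype) did not pass over all genes (adjusted p = 0.171 by limma and Benjamini-Hochberg adjustment), and it passed with somite stage in the model (adjusted p = 0.0473), where 4.16% of all genes pass (2.08% higher, 2.08% lower). The difference was 0.40 at 40 somites and 0.45 at 39. Numb, a membrane-associated inhibitor of Notch, stood at 19.4 and 21.3 TPM against 28.1 and 25.2 TPM, a log2 fold change of -0.38 ± 0.12 that did not pass (adjusted p = 0.260 by limma with Benjamini-Hochberg adjustment). Its paralog Numbl stood at 7.97 and 11.2 TPM against 9.15 and 9.98 TPM, with overlapping groups. Dtx2 stood at 16.1 and 17.1 TPM against 15.1 and 18.5 TPM, Dtx4 lay between 1.64 and 1.85 TPM, and Dtx1 between 0.494 and 0.634 TPM.

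The genes listed as targets, among which are usual readouts of Notch activity, held 0 calls among the 6 tested by limma, and for 0 of them was the unadjusted p under 0.05. Hes1, a broadly used Notch target, measured 37.3 and 37.5 TPM in knockout limbs, against 41.2 and 42.6 TPM in control limbs. Although the groups did not overlap, the log2 fold change was -0.16 ± 0.10, with an interval from -0.41 to 0.09. Nrarp, a target that feeds back on the receptor's intracellular domain, stood at 18.8 and 14.4 TPM against 19.5 and 18.03 TPM. Hes6, a family member that opposes Hes1, stood at 47.1 and 55.0 TPM against 40.4 and 46.5 TPM, separated but not passing, with a difference of 0.23 and an interval from -0.09 to 0.55.

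Hey1, a target of many mesenchymal and vascular cells, measured 52.6 and 47.6 TPM in knockout limbs, against 31.2 and 49.4 TPM in control limbs, so that 1 control library was low and the other lay between the knockouts. The difference was 0.73 at 40 somites and -0.05 at 39, and the estimate of 0.34 had an interval from -0.18 to 0.86. Hey2 lay between 1.36 and 1.498 TPM in all libraries. Heyl stood at 3.49 and 1.64 TPM against 3.53 and 2.11 TPM, higher at 40 somites in each genotype. Hes7 stood at 0.370 and 0.269 TPM against 0.422 and 0.675 TPM, and Hes5 at 0.0645 and 0 TPM against 0.126 and 0.133 TPM. Of the genes whose upstream sequences are shown, Hey2 and Lfng thus had overlapping groups, and Hes5 and Hes7 were below 1 TPM in every library.

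**Figure D3:**
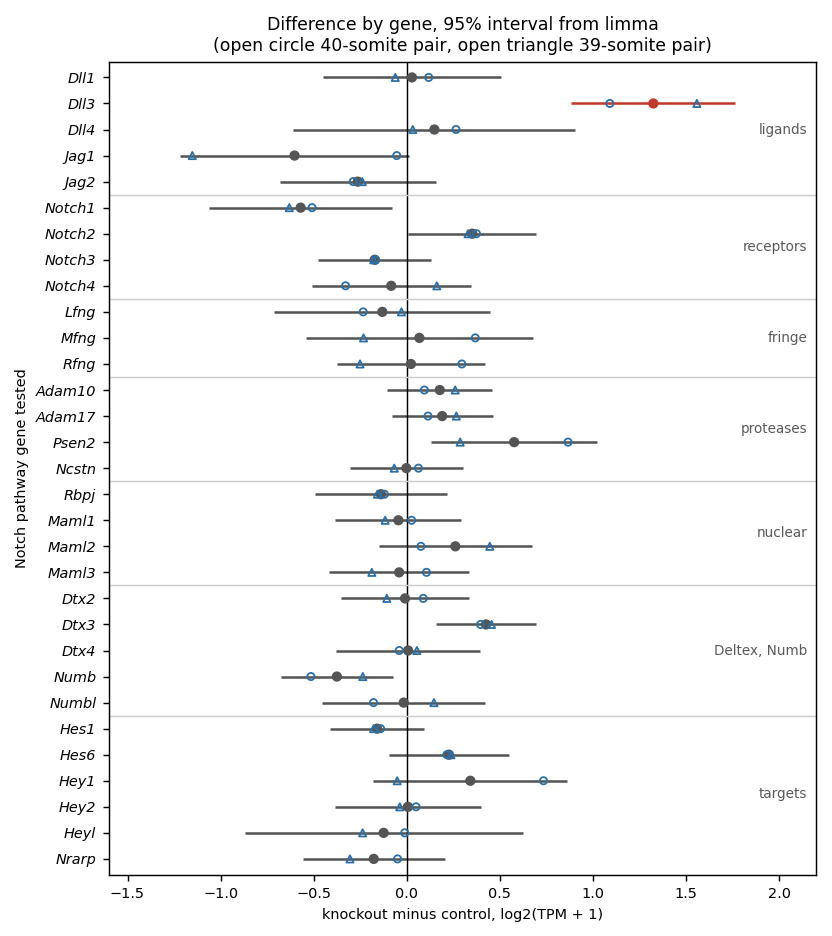
Knockout minus control for the 31 tested genes on the log2(TPM + 1) scale: filled points are the limma estimates with 95% intervals, open circles the pair of embryos with 40 somites and open triangles the pair with 39. Dll3, in red, passed over all genes (1.32, interval 0.88 to 1.76), and Jag1 and Hey1 show pairs that lie far apart (-0.05 and -1.15, and 0.73 and -0.05).

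The embryos of each genotype also differed from each other. For 15 of the 31 tested members the mean difference between 39 and 40 somites was larger than the difference between genotypes. In both genotypes 14 members were higher at 39 somites and 6 at 40 somites, and 11 changed order. These counts have no share of all genes beside them. Each library's median ratio of TPM to a gene's geometric mean was 0.978 and 1.035 in the knockouts. In the controls it was 0.952 and 1.041, so a typical gene was also higher at 39 somites in both genotypes. The part of this scaling in the counts was not tested. Stage, sex and the individual embryo cannot be told apart here. The knockout minus control difference had the same sign at both stages for 19 of 31 members, against 8859 of 12809 genes.

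Markers of other cell types were read beside the members, and mural cells are not among those given above as outside the PrxCre domain. The 12 surface ectoderm markers, such as Epcam, Cdh1 and Krt8, summed to 523.7 and 334.6 TPM in knockout limbs, against 671.9 and 449.2 TPM in control limbs. All 12 log2 fold changes were below 0, with a median of -0.49, and 0 of 12 passed by limma. For 5 of them (41.7%) the unadjusted limma p was under 0.05, against 6.89% of all genes on the lower side. With somite stage in the model 4 of the 12 passed as lower, Cldn6, Perp, Wnt6 and Grhl3, against 2.08% of all genes. None of these markers was at 0. Jag2, Lfng, Nrarp and Heyl had the same order of the 4 libraries as the marker sum, 4 of 31 tested members (12.9%) against 2.83% of all genes. Notch1 shared the highest and the lowest library with it but not the order of the other two. The ridge list of 10 genes summed to 224.6 and 180.7 TPM against 299.1 and 282.2 TPM. Its highest mean level was that of Wnt5a, at 102.1 and 85.8 TPM against 93.7 and 111.3 TPM, with overlapping groups. Next came Fgf8, at 53.7 and 45.6 TPM against 115.8 and 98.2 TPM. Fgf8 and Sp6 fell, 2 of the 10, but the list did not move one way. Its log2 fold changes were below 0 for 8 genes and above 0 for 2, Bmp2 and Dlx6. Bmp2 was separated above the controls, at 7.26 and 6.26 TPM against 4.75 and 4.35 TPM, without passing. The part of the ectoderm in the values of Jag2, Lfng, Nrarp, Heyl and Notch1 was not tested.

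The 12 endothelial markers, such as Pecam1, Cdh5 and Kdr, summed to 102.9 and 143.5 TPM in knockout limbs, against 83.9 and 152.6 TPM in control limbs, with 8 log2 fold changes above 0, 4 below and 0 passing in limma (0 at an unadjusted p under 0.05). None of them was at 0. Dll4 and Mfng were lower in the libraries with 40 somites, where the marker sum was lower too, and Notch4 did not share this order. The full order of the endothelial sum was that of Mfng, Maml1, Dtx2 and Ncstn, again 4 of 31 (12.9%), against 8.70% of all genes. Mural markers without Notch3 summed to 31.3 and 30.9 TPM against 35.7 and 36.3 TPM, but the list did not move one way: Tagln was separated below the controls, Rgs5 and Cspg4 above them, and Pdgfrb and Acta2 overlapped. The other 2 of the 7, Kcnj8 and Abcc9, were below 1 TPM in every library. The 10 neural and Schwann markers summed to between 17.2 and 21.5 TPM, and 5 of the 10 stayed below 1 TPM in every library. The 8 arterial markers summed to between 86.5 and 113.1 TPM and the 8 macrophage markers to between 8.41 and 15.2 TPM, and 0 of either list passed. The unadjusted limma p was under 0.05 for 4 of the 7 arterial markers tested (57.1%), against 13.7% of all genes. Of these Efnb2 and Cxcr4 were higher, and Unc5b and Nrp1 were lower. The other 3 arterial markers tested, Gja5, Gja4 and Sox17, had overlapping groups. Of the 4 macrophage markers tested the unadjusted limma p was under 0.05 for 1, Adgre1. It was lower (0.468 and 0.381 TPM against 1.17 and 2.00 TPM). The part of these cell types in the members' values was not tested.

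**Figure D4:**
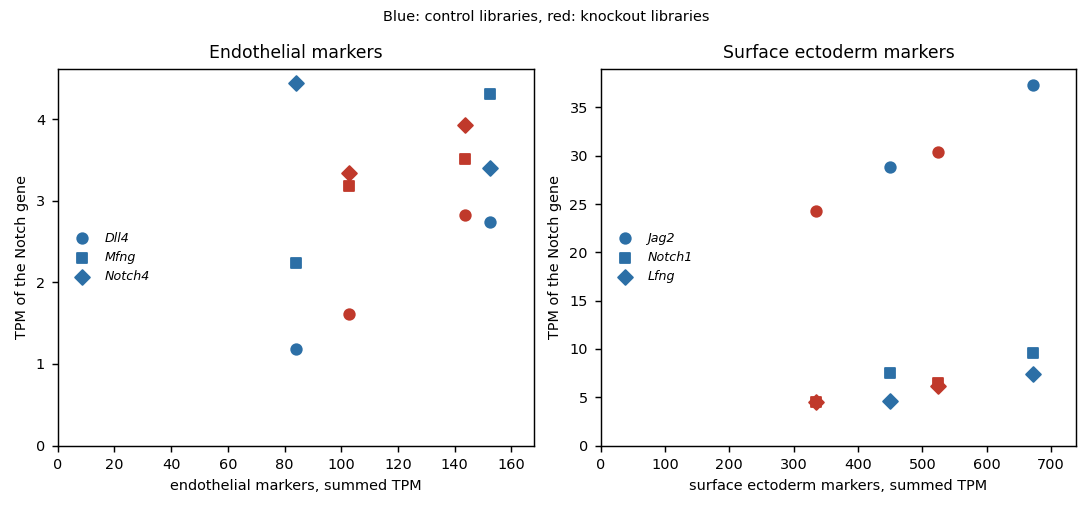
TPM of 3 Notch genes in each library against the summed TPM of 12 endothelial markers (left) and 12 surface ectoderm markers (right); blue marks control and red knockout libraries. Dll4 and Mfng are higher in the 2 libraries with the larger endothelial sums (143.5 and 152.6 TPM), and Jag2, Notch1 and Lfng are highest where the ectoderm sum is highest (671.9 TPM); with 4 libraries no correlation is given.

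Outside the 34 genes, a list of 40 further genes of the pathway was read in the same fit, of which 35 were tested. Dlk1 rose, 0 fell and 34 did not pass, and the unadjusted limma p was under 0.05 for 3 higher and 0 lower genes, 8.57% of the list against 13.7% of all genes. Its fold changes had a median of -0.04 on the log2 scale. Dlk1, a paternally expressed imprinted gene, encodes a Delta-like protein that lacks the domain with which canonical ligands bind Notch. It measured 86.9 and 144.5 TPM in knockout limbs, against 33.6 and 33.0 TPM in control limbs (log2 fold change 1.72 ± 0.23, SE, n = 2 per genotype, adjusted p = 0.0346 by limma with Benjamini-Hochberg adjustment). Both genotypes were far apart, but the call ended without control replicate 1 or 2 (0.0705 and 0.0806), under median-ratio and quantile scaling (0.0508 and 0.0608) and with no filter (0.198).

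Aph1b and Aph1c, near-identical genes for a gamma-secretase subunit between which reads can be divided, had the next smallest p-values. Aph1b measured 15.1 and 24.4 TPM in knockout limbs, against 7.07 and 7.80 TPM in control limbs, and Aph1c stood at 1.33 and 2.25 TPM against 0.706 and 0.925 TPM. Their sum was 16.5 and 26.7 TPM against 7.78 and 8.73 TPM, with no overlap. Over all genes Aph1b did not pass (1.27 ± 0.23, adjusted p = 0.0702 by limma with Benjamini-Hochberg adjustment). Adding somite stage brought it past the threshold (limma adjusted p = 0.0274). It did not pass with either pseudocount, with no filter, at a minimum of 5 TPM or without the variance trend. Nor did it pass under median-ratio or quantile scaling. Its fold change was 1.59 with knockout replicate 1 left out and 0.94 with knockout replicate 2 left out, fits in which the lone knockout had no spread of its own. Tle4, a Groucho corepressor recruited by Hes proteins, stood at 15.6 and 16.3 TPM against 18.4 and 21.3 TPM and did not pass (-0.29 ± 0.13, adjusted p = 0.397 by limma with Benjamini-Hochberg adjustment). Of the 17 nuclear cofactors 0 passed by limma, for 0 was the unadjusted p under 0.05, and 7 were separated below the controls and 1 above. Over the 35 tested genes of the list 14 were separated, 5 higher and 9 lower, which is 40.0% against 43.9% of all genes (22.7% higher, 21.2% lower).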

How the data were processed

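RNA was measured in 4 libraries of E11.5 forelimb pairs, 2 knockout and 2 control. The authors deposited TPM values, each column summing to 1000000. Salmon 1.9.0 and mm10 are named per the submitters' processing notes, and the transcript set is not given in the sources used here. The use of strand is not given either, and 11 members have exons that overlap a gene on the other strand. These are Notch1, Notch3, Dll1, Dll4, Hes5, Hes7, Maml1, Nrarp, Numb, Adam17 and Ncstn. The overlapping gene has deposited values for 2 of them, Adam17 and Ncstn. Of 35727 identifiers 99.1% matched a symbol, and 38 repeated symbols were summed. Column names matched sample titles, 1 with an extra letter.

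Genes with at least 1 TPM in at least 2 libraries were tested as log2(TPM + 1) in limma 3.58.1 (R 4.3.3, lmFit and eBayes with a variance trend), without covariates, with Benjamini-Hochberg adjustment over all 12809 genes at 0.05. The test was tested on simulated data. Fold changes on this scale understate changes of low genes. TPM keeps no depth, so precision rests on n = 2 per genotype, and nothing beyond the separate embryos says how far the spread is technical. The members and lists were chosen with earlier results of these data known, so no list was tested as a set. Some marker genes, and the list values that need them, are not reported here. All members are named, with values in every library for those called, with an unadjusted p under 0.05 or with a mean of at least 10 TPM in either genotype. Of the further pathway genes, the 4 with the smallest p are named. Alternatives were pseudocounts of 0.1 and 5, no filter and a minimum of 5 TPM, median-ratio and quantile scaling, a block for somite stage, a fit without the variance trend and each library left out. The block pairs embryos by the stage in the labels, since replicate numbers here follow the order of deposit. Deviations from the genotype means correlated between embryos of a stage (Pearson 0.218, Spearman 0.364, across 12805 genes, which are not independent replicates).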

Additional observations from a re-analysis of the deposited data

How the results depend on the processing

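Dll3 was the passing member in the fits with both pseudocounts, median-ratio scaling and no variance trend. Its fold change was 1.49 with knockout replicate 1 left out and 1.16 with knockout replicate 2 left out. Counts of members passing as higher were 0 with no filter, 0 at a minimum of 5 TPM (where Dll3 was not tested), 0 under quantile normalization and 2 with the somite stage block (Dll3 and Dtx3), and between 0 and 1 with a library left out. As lower, 0 to 2 passed with a library left out, the 2 being Notch1 and Jag1 without knockout replicate 1. At an unadjusted limma p under 0.05, 4 members were higher and 2 lower in the fit as reported, against 1752 of 12809 genes. At a minimum of 5 TPM 2 were higher and 3 lower, against 1240 of 10076 genes, and neither Dll3 nor Psen2 was tested. Under median-ratio scaling 4 were higher and 1 lower, against 2183 of 12809 genes. Quantile scaling also gave 4 higher and 1 lower, against 2157 of 12809 genes. Of separated members, 8 were higher, 5 at a minimum of 5 TPM and 8 to 15 with a library left out, and 5 were lower, 9 to 12 with a library left out. A library left out sets 1 value against 2, where groups fail to overlap more easily than with 2 against 2. No share of all genes stands beside these separated counts, so their rise cannot be read as a property of the members. Of the further pathway genes 1 passed as higher, 0 with no filter, 0 under median-ratio and 0 under quantile scaling, 2 with the stage block and 0 to 2 with a library left out. Over all genes 104 were higher and 63 lower, 0 and 0 with no filter (limma, where 2338 genes had an unadjusted p under 0.05), 266 and 267 with the stage block, and 54 to 242 higher and 19 to 313 lower with a library left out. Quantile normalization gave 38 lower. Start sites with a motif match numbered 10 for the core and 5 for the longer form. Signs turned in members that did not pass: under median-ratio scaling Hey2 came to -0.00252 and Dtx4 to -0.0034. With a library left out Notch4 ran from -0.24 to 0.069, Dll1 ran from -0.16 to 0.22, Dll4 ran from -0.24 to 0.54, Hey2 ran from -0.034 to 0.046, Heyl ran from -0.51 to 0.26, Lfng ran from -0.42 to 0.16, Mfng ran from -0.29 to 0.42, Rfng ran from -0.14 to 0.19, Maml1 ran from -0.17 to 0.084, Maml3 ran from -0.12 to 0.036, Nrarp ran from -0.36 to 0.0041, Dtx2 ran from -0.15 to 0.13, Dtx4 ran from -0.049 to 0.062, Numbl ran from -0.24 to 0.20 and Ncstn ran from -0.11 to 0.11. Leaving out a library unbalances stage and sex, and the causes were not tested. The stage block pairs embryos by their labelled stage and left every fold change as it was. The depth behind TPM is unknown, so what depth limits cannot be given.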

Other observations

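The coding genes beside Dll3 were read because Dll3 was the member that rose, and they were chosen after its values were seen. Within 50 kb there are 6 such genes, of which 5 were tested and 0 passed by limma with Benjamini-Hochberg adjustment, nor did any have an unadjusted p under 0.05. Timm50, a subunit of the mitochondrial import channel that lies 3.28 kb from Dll3, measured 102.5 and 119.3 TPM in knockout limbs, against 87.8 and 111.9 TPM in control limbs, with overlapping groups. Selenov, 2.37 kb away, was below 1 TPM in every library. Eid2b, 14.1 kb away, stood at 7.81 and 8.85 TPM against 6.59 and 7.21 TPM, separated but not passing (log2 fold change 0.24, interval -0.10 to 0.58). Eid2, Rps16 and the elongation factor gene Supt5 overlapped between genotypes.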
